A study of Mus musculus with 8 samples.

Results

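Respiratory complex I takes electrons from NADH, passes them through flavin and iron-sulfur clusters to ubiquinone, and pumps protons across the inner mitochondrial membrane. It is L-shaped, with a matrix arm that oxidises NADH (N module) and reduces ubiquinone (Q module), and a membrane arm that pumps protons (P module). Core subunits carry out the chemistry, accessory subunits surround and stabilise them, and assembly factors build the enzyme without staying in it. The genes described here are all those whose symbol starts with Nduf in the annotation of the arrays, 42 genes of 17097 measured. They are read by 75 probe sets, and the brightest probe set of each gene was taken as its value. By textbook role they are 6 nuclear core subunits, 26 of 30 accessory subunits, 7 of 8 assembly factors whose names start with Ndufaf, and 3 others. The others are Ndufa4, now counted as a subunit of cytochrome c oxidase, its paralogue Ndufa4l2, and the transcribed pseudogene Ndufs5-ps. The accessory subunits Ndufa13, Ndufb1, Ndufb6 and Ndufs5 and the factor Ndufaf7 were not analysed here, nor were the 7 core subunits encoded in mitochondrial DNA.

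The cells were dermal fibroblasts of female mice that ate either Normal Diet (ND) or High Fat Diet (HFD) for 6 months, starting when they were 2 months old. No strain is given, and no genotype or further treatment is named for either group. Skin freed of its subdermis was digested with collagenase, and 10000 cells per sample, positive for Pdgfra and CD34 and negative for CD45, CD117, CD24, CD31 and EpCam, were sorted. RNA from these cells went through 20 cycles of amplification before array hybridisation, with 4 specimens per diet. The array ND 4 is marked as excluded after quality control, with no reason given, and the comparison is of HFD 1 to 4 with ND 1 to 3. Each specimen was taken as 1 mouse. If specimens were not separate mice, the p-values measure only the spread between these samples.

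The medians of the 8 arrays were 6.16 to 6.19, and precision is limited by how few arrays there are. The sorted marker Cd34 was at 12.08 in ND and 12.10 in HFD, and all 10 genes of a fibroblast and sort list were measured, with array means of 11.39 to 11.44 in ND and 11.32 to 11.41 in HFD. In that list 2 genes fell, the matrix genes Lum (−0.34, limma adjusted p = 0.0359) and Fbln1 (−0.26, adjusted p = 0.0329). The other sorted marker, Pdgfra, gave a low signal of 5.92 in ND and 6.27 in HFD, below the median gene of 6.77. Among skeletal muscle markers, 8 of 10 were below the median gene, and their array means were 5.75 to 5.77 in ND and 5.69 to 5.80 in HFD. Of 6 smooth muscle and pericyte markers, 5 were higher in HFD, with none past the threshold. Their array means were 6.29 to 6.44 in ND and 6.46 to 6.555 in HFD, without overlap. The largest difference was Des at 0.49 (limma adjusted p = 0.168). Of 8 endothelial markers 6 were higher, none past the threshold, with overlapping means of 5.90 to 6.08 in ND and 5.94 to 6.175 in HFD.

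After the high fat diet, 4 Nduf genes were higher, 1 was lower and 37 did not pass the threshold (limma, adjusted p under 0.05 over all genes). The 4 that rose were Ndufv1, Ndufa9, Ndufb9 and Ndufs4, by 0.48 to 0.59 on the log2 scale, and Ndufa3 fell by 0.41. Among all genes, 2.62% were higher and 2.73% lower, so the share of Nduf genes called was 9.52% in the first direction and 2.38%, near the background, in the second. Before adjustment, 16 Nduf genes were higher at p under 0.05, or 38.1% against 12.3% of all genes, and 5 were lower, or 11.9% against 9.83%. In 17 Nduf genes, or 40.5%, all 4 HFD arrays lay above all 3 ND arrays, against 9.95% of all genes. In 3, or 7.14%, they lay below, against 7.99%. The median change of the 42 genes was 0.135, with 29 positive, while the median of all genes was 0.02 and 56.2% of them were positive. No test compared the Nduf genes with other genes. In bulk samples, a different number of cells of one type and a different amount of RNA per cell cannot be told apart.

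**Figure D1:**
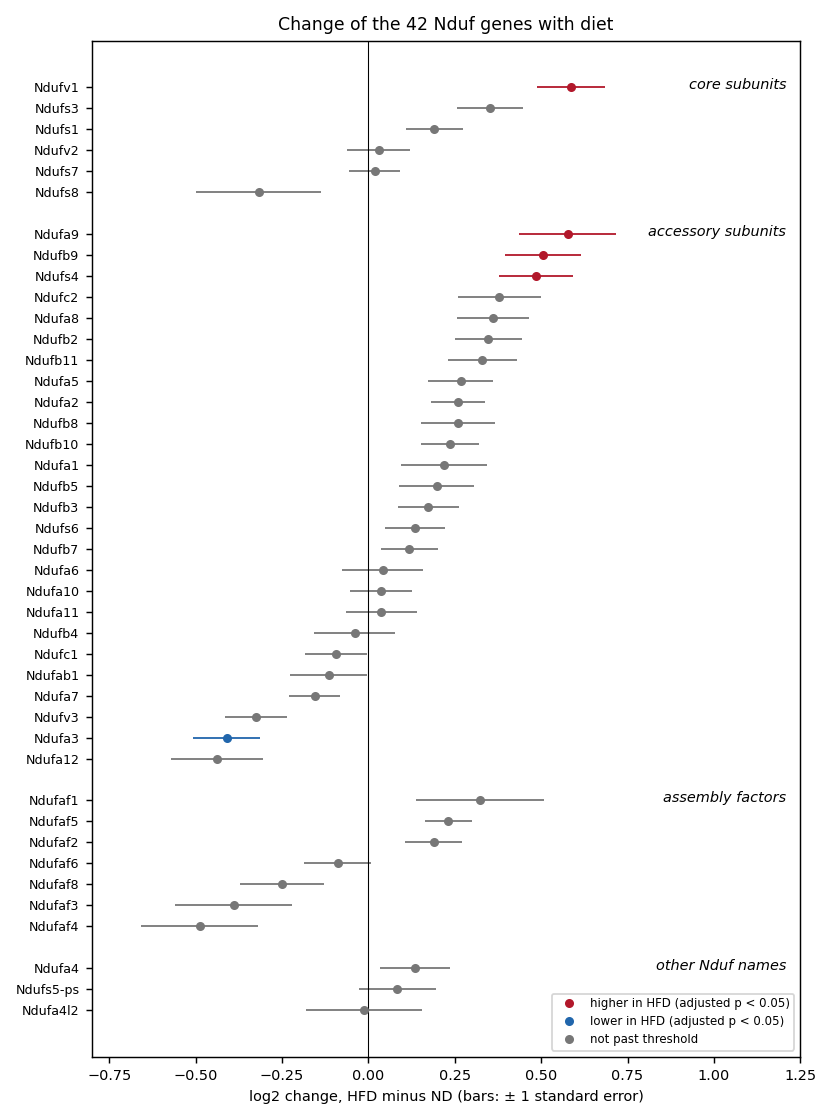
Log2 change, HFD minus ND, of the 42 Nduf genes (horizontal axis, points, with bars of 1 standard error), grouped by role, with the 5 genes past the threshold in colour. Most subunits lie to the right of 0, while Ndufa3, Ndufa12, Ndufv3 and Ndufs8, among others, and 4 of the 7 assembly factors lie to the left.

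The core subunit Ndufv1, which holds the flavin and the NADH binding site, had the largest rise. Its level was 10.28, 10.16 and 9.87 in ND 1, 2 and 3 and 10.66, 10.74, 10.66 and 10.70 in HFD 1, 2, 3 and 4. The HFD arrays lay close together and above every ND array, with ND 3 the lowest. The change was 0.59 (SE 0.10, adjusted p = 0.0224), from 10.10 ± 0.21 (SD, n = 3) to 10.69 ± 0.04 (SD, n = 4). Its dimmer probe set differed by 0.39 (SE 0.10, unadjusted p = 0.00312), without overlap between the diets.

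The accessory subunits that rose sit in different places of the enzyme. Ndufa9, a nucleotide-binding subunit where the arms meet, was at 9.19, 9.21 and 8.73 in the ND arrays and 9.77, 9.70, 9.35 and 9.66 in the HFD arrays. ND 3 was again the lowest, HFD 3 lay nearest to ND, and the groups did not overlap (change 0.58, SE 0.14, adjusted p = 0.0448). Ndufb9, a subunit of the distal membrane arm, was at 9.19, 9.22 and 8.80 in ND and 9.65, 9.57, 9.50 and 9.58 in HFD. Here too ND 3 stood below the other ND arrays (change 0.51, SE 0.11, adjusted p = 0.0353). Ndufs4, an accessory subunit of the N module whose loss causes a Leigh-like disease in mice, was at 8.57, 8.35 and 8.26 in ND and 8.76, 8.78, 9.02 and 8.95 in HFD. All HFD arrays were above all ND arrays (change 0.48, SE 0.11, adjusted p = 0.0360). Its other probe sets do not share that rise: one, at 6.80, 6.57 and 7.18 in ND and 6.48, 6.64, 6.14 and 6.32 in HFD, differed by −0.46 (SE 0.15, unadjusted p = 0.0144). The other, near the lower end of the scale at 4.45, differed by −0.03. Ndufs4 was the only gene of the 22 with several probe sets with a second one of opposite sign whose unadjusted p was under 0.05.

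Ndufa3, a small subunit of the proximal membrane arm, fell. It was at 11.12, 11 and 11.28 in ND and 10.76, 10.81, 10.80 and 10.52 in HFD, so the diets did not overlap and HFD 4 was lowest. The change was −0.41 (SE 0.10, adjusted p = 0.0406), from 11.13 ± 0.14 (SD, n = 3) to 10.72 ± 0.14 (SD, n = 4). The probe set behind this value carries the suffix for probes shared with other transcripts. The second probe set of the gene, without that suffix, gave −0.40 (SE 0.11, unadjusted p = 0.00373) and an adjusted p = 0.0668 over all probe sets.

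**Figure D2:**
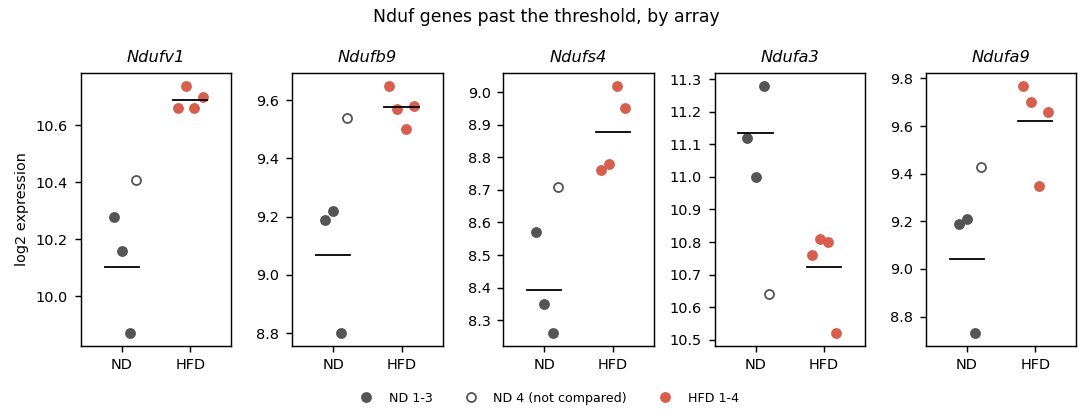
Log2 expression of the 5 Nduf genes past the threshold in each array, with ND 1 to 3 in grey, the excluded ND 4 as an open point, HFD 1 to 4 in red and lines at the means of the arrays compared. Each panel has its own vertical axis, which does not start at 0. ND 4 lies within the HFD range in Ndufb9, Ndufa3 and Ndufa9 and between the groups in Ndufv1 and Ndufs4.

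The other 5 core subunits measured did not pass, and they did not share 1 direction. Ndufs3, of the Q module, was at 9.25, 9.08 and 8.96 in ND and 9.54, 9.49, 9.36 and 9.40 in HFD, without overlap (difference 0.35, SE 0.10, adjusted p = 0.0614). Ndufs1, the largest subunit and carrier of iron-sulfur clusters, was at 7.89, 7.89 and 7.97 against 8.13, 8.13, 8.01 and 8.16, also without overlap (0.19, SE 0.08, adjusted p = 0.208). Ndufv2, an iron-sulfur protein beside Ndufv1, was at 9.64, 9.38 and 9.61 against 9.65, 9.59, 9.56 and 9.49, with overlapping groups and a difference of 0.03 (95% interval −0.17 to 0.23). Ndufs7, which holds the last cluster before ubiquinone, was at 10.51, 10.46 and 10.37 against 10.51, 10.42, 10.41 and 10.52, and its difference of 0.02 had a 95% interval of −0.15 to 0.18. These intervals leave out the rise of Ndufv1, though the difference between these genes was not tested.

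Ndufs8, another iron-sulfur subunit of the Q module, differed by −0.32 with a wide standard error of 0.18 (adjusted p = 0.346). It was at 9.38, 9.42 and 9.25 in ND and 9.10, 9.37, 9.19 and 8.47 in HFD. HFD 4 stood well below the rest, and the excluded ND 4, at 8.87, was also below the other ND arrays. Of its 3 dimmer probe sets, 2 gave −0.32 and −0.34 and the third gave 0.03. Over the 6 core subunits measured, 1 was higher, 0 lower and 5 not past the threshold, with a median change of 0.11 and 5 positive. These calls were 16.7% and 0% of the class, against 2.62% and 2.73% of all genes. At an unadjusted p under 0.05, 3 were higher and 0 lower (50% and 0%, against 12.3% and 9.83%).

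Of the 26 accessory subunits, 3 were higher, 1 lower and 22 not past the threshold, with a median change of 0.19 and 19 positive. The calls were 11.5% and 3.85% of the class, against 2.62% and 2.73% of all genes. At an unadjusted p under 0.05 there were 11 higher and 3 lower (42.3% and 11.5%, against 12.3% and 9.83%). Among the members nearest to the threshold, Ndufb2 differed by 0.35 (adjusted p = 0.0659), Ndufa8 by 0.36 (adjusted p = 0.0701) and Ndufa2 by 0.26 (adjusted p = 0.0764), each with all HFD arrays above all ND arrays. Ndufb11, an X-linked subunit of the distal membrane arm, was at 10.51, 10.32 and 10.13 in ND and 10.52, 10.63, 10.70 and 10.75 in HFD, a difference of 0.33 (adjusted p = 0.0817). The groups touch there, with ND 1 and HFD 1 only 0.01 apart. Ndufa1, the other X-linked member, was at 10.02, 10.38 and 10.04 against 10.49, 10.17, 10.24 and 10.56, with overlap (0.22, SE 0.12).

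Some accessory subunits were lower in HFD, though not past the threshold. Ndufv3, at the tip of the matrix arm, was at 10.78, 10.89 and 10.92 in ND and 10.74, 10.45, 10.46 and 10.50 in HFD, a difference of −0.33 (SE 0.09, adjusted p = 0.0617). HFD 1 lay just below ND 1 and apart from the other HFD arrays. Ndufa12, also of the N module, was at 9.94, 9.70 and 9.99 against 9.77, 9.31, 9.22 and 9.45, and HFD 1 overlapped ND (−0.44, SE 0.13, adjusted p = 0.0821). The dimmer probe sets of Ndufa12 were negative too, at −0.45 and −0.20. Ndufa7 differed by −0.16 (SE 0.07, adjusted p = 0.254), all 5 of its probe sets were negative, from −0.32 to −0.13, and its diets did not overlap. The acyl carrier protein Ndufab1 differed by −0.12 and Ndufc1 by −0.09.

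By position in the enzyme, the 15 subunits measured in the matrix arm had a median change of 0.13. Of them 3 were higher and 0 lower (20% and 0%). The 17 of the membrane arm had a median of 0.20, with 1 higher and 1 lower (5.88% each). Among all genes, 2.62% were higher and 2.73% lower. The N module, complete with 8 of 8 subunits, held both Ndufv1 and Ndufs4 and also Ndufa12 and Ndufv3, so its changes ran from −0.44 to 0.59. The 10 subunits of the distal membrane arm ranged from −0.12 to 0.51, with 8 positive. The HFD arrays lay above all ND arrays in 6 of these 10, in 4 of 8 subunits of the N module, 3 of 7 of the Q module and 2 of 7 of the proximal membrane arm, against the 9.95% of all genes. The 7 proximal ones had a median of 0.04, and the 7 of the Q module also 0.04.

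None of the 7 assembly factors passed the limma threshold, and their median change was −0.09, with 3 positive. At an unadjusted p under 0.05, 2 were higher and 2 lower (28.6% each, against 12.3% and 9.83% of all genes). Ndufaf5, which modifies Ndufs7, was at 6.13, 6.07 and 6.14 in ND and 6.32, 6.43, 6.30 and 6.33 in HFD, without overlap (0.23, SE 0.07, adjusted p = 0.0725). Its partner Ndufaf8 was at 8.37, 8.37 and 8.35 against 8.44, 8.00, 8.08 and 7.93, so HFD 1 lay above ND and the other HFD arrays below it (−0.25, SE 0.12, adjusted p = 0.259). The dimmer probe set of Ndufaf8 differed by 0.06. Ndufaf2, a paralogue of Ndufa12 that works on the late enzyme, was at 8.58, 8.45 and 8.6 against 8.73, 8.77, 8.73 and 8.70, again without overlap (0.19, SE 0.08, adjusted p = 0.209).

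Ndufaf3 and Ndufaf4, which act together on the Q module, were both lower in HFD without passing. Ndufaf4, with the most negative change of the 42 genes, was at 7.08, 6.69 and 7.27 in ND and 6.91, 6.58, 6.31 and 6.30 in HFD (−0.49, SE 0.17, adjusted p = 0.119). HFD 1 lay within the ND range, and the dimmer probe set differed by −0.08. Ndufaf3 was at 8.92, 8.66 and 8.43 against 8.27, 8.61, 8.37 and 7.87, with overlapping groups (−0.39, SE 0.17, adjusted p = 0.211). Ndufaf1, Ndufaf4, Ndufaf5 and Ndufaf6 had mean levels below the median gene of 6.77, so their signal was dim. Ndufaf1 was at 5.30, 5.38 and 4.86 in ND and 5.38, 6.05, 5.33 and 5.25 in HFD (0.32, SE 0.19), with HFD 2 alone high.

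The 3 other genes with an Nduf name overlapped between the diets. Ndufa4 was at 9.63, 9.23 and 9.48 against 9.55, 9.57, 9.57 and 9.64 (0.14, SE 0.10). Ndufa4l2, known as a hypoxia-induced gene, was at 9.64, 10.16 and 9.91 against 10.31, 9.60, 9.87 and 9.78, and its difference of −0.01 had a 95% interval of −0.39 to 0.36. Ndufs5-ps, a near-identical copy of Ndufs5 whose probe sets may read both transcripts, is uncertain for that reason and was at 8.45, 8.64 and 8.73 against 8.75, 8.78, 8.45 and 8.78 (0.08, SE 0.11).

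**Figure D3:**
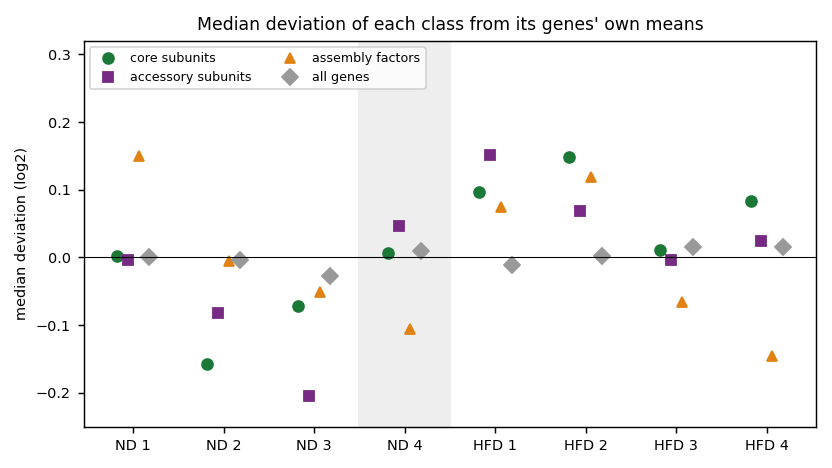
For each array (horizontal axis), the median over a class of each gene's deviation from its own mean over the 7 compared arrays, in log2 units. Accessory subunits are lowest in ND 3 (−0.20) and highest in HFD 1 (0.15), assembly factors run from 0.15 in ND 1 to −0.15 in HFD 4, and the median of all genes stays within 0.03 of 0 in the 8 arrays.

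The arrays of 1 diet differed among themselves in these genes. The median deviation of the accessory subunits was 0.00, −0.08 and −0.20 in ND 1, 2 and 3 and 0.15, 0.07, 0.00 and 0.02 in HFD 1 to 4. ND 1 and HFD 3 were thus equal at 2 decimals, with ND 2 and ND 3 below them and HFD 1, HFD 2 and HFD 4 above. The core subunits ran from −0.16 in ND 2 to 0.15 in HFD 2. The excluded ND 4 was at 0.05 for accessory and 0.01 for core subunits. Of the 20 Nduf genes whose diets did not overlap, ND 4 lay within the HFD range in 11, beyond it in 1, between the diets in 5 and within the ND range in 3. Over the 3068 genes of all kinds whose diets did not overlap, ND 4 lay within the HFD range in 52.2%, near the 55% of the Nduf genes. Over all probe sets, ND 4 was also closer to each HFD array (SD of the differences 0.18 to 0.205) than to any ND array (0.216 to 0.3).

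With ND 4 included, 13 Nduf genes were higher and 4 lower at an unadjusted limma p under 0.05. Of 17097 genes, 2795 were under that p in either direction. None of the 42 Nduf genes passed the adjusted threshold, and 0.0351% of all genes did. Leaving out 1 array moved the count as well. It was 7 without ND 1 (background 4.76%), 3 without ND 2 (2.84%), 7 without HFD 1 (6.27%) and 1 without HFD 2 (1.24%). None passed without ND 3 (0.0643%), HFD 3 (0.0351%) or HFD 4 (0.0526%). At an unadjusted limma p under 0.05, 13, 16 and 14 Nduf genes were higher there and 4, 4 and 4 lower. Of all 17097 genes, 2535, 3224 and 3003 were under that p in either direction. Without ND 1 the 7 were all higher, namely Ndufv1, Ndufb9 and Ndufs4 of the earlier 4 together with Ndufs3, Ndufa5, Ndufb2 and Ndufb11. Without HFD 1 there were 2 higher, Ndufv1 and Ndufs4, and 5 lower, Ndufa3, Ndufv3, Ndufa12, Ndufaf4 and Ndufaf8. Ndufv1 was called in 4 of these 7 fits, and its change ran from 0.47 to 0.68. Ndufb9, Ndufs4 and Ndufa3 each lost their call in 5 of the 7. Ndufa9 lost it in all 7, with adjusted p from 0.0529 to 0.158 in limma and changes from 0.42 to 0.67. The median change of the 42 genes stayed between 0.12 and 0.17 in these 7 fits and was 0.11 with ND 4.

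**Figure D4:**
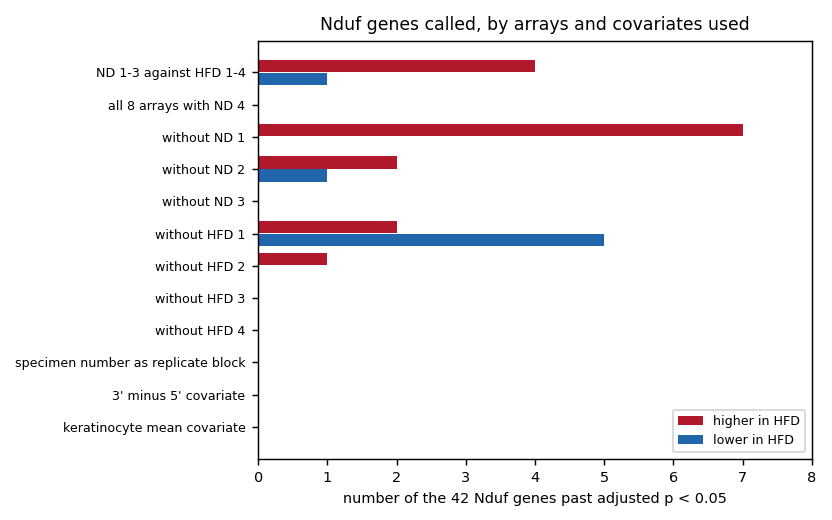
Number of the 42 Nduf genes past an adjusted p of 0.05 in limma (horizontal axis), higher in HFD in red and lower in blue, for the 7 arrays compared, for all 8 arrays, without each array, with the specimen number as a block, and with a covariate. No bar means that 0 genes passed.

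A measure of RNA quality separated the diets, while keratinocyte markers were higher in HFD on average with overlapping arrays. Control probe sets at the 3′ and 5′ ends of Gapdh and Actb give a 3′ minus 5′ difference per array, which was −0.29, −0.335 and −0.18 in ND and −0.40, −0.44, −0.375 and −0.44 in HFD. With 35 possible splits of the arrays, an exact permutation test (two-sided) gave its smallest possible p = 0.0286. ND 3, lowest in Ndufv1, Ndufa9, Ndufb9 and Ndufs4 and highest in Ndufa3, had the smallest difference, and the excluded ND 4 was at −0.37, near HFD. With this difference as a covariate no Nduf gene passed in limma, and 0% of all genes did. At an unadjusted p under 0.05 there were 0 Nduf genes, against 604 of 17097 genes. The median change was 0.08, and Ndufv1 differed by 0.30. The covariate also raised the median standard error of the 42 genes from 0.10 to 0.18. Of 19 keratinocyte markers 17 were measured, 8 of them below the median gene, and all 17 were higher in HFD without any passing. Their log2 summed level was 11 to 11.63 in ND and 11.20 to 12.97 in HFD. Brighter ones included Krt5, at 8.19 in ND and 9.045 in HFD, and Krt10, at 9.24 and 9.83. The largest difference was that of Perp, at 1.55 (limma adjusted p = 0.143). Epcam, which the sort selected against, was low, at 5.23 and 5.27, and differed least, by 0.03. The array means of the list differed by 0.53 (exact two-sided permutation p = 0.171). With the keratinocyte mean as a covariate no Nduf gene passed in limma, 0.0877% of all genes did, and the median change was 0.15. At an unadjusted p under 0.05, 12 Nduf genes were higher and 2 lower, against 2609 of 17097 genes in either direction. The part of RNA quality and of RNA from keratinocytes, smooth muscle or pericytes in the results was not tested.

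**Figure D5:**
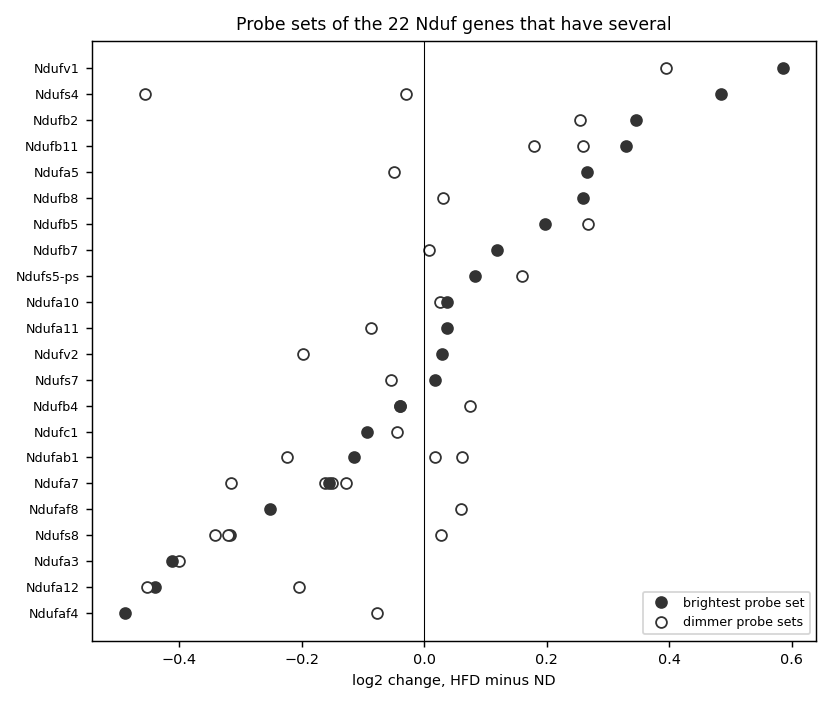
Log2 change, HFD minus ND (horizontal axis), of every probe set of the 22 Nduf genes that have more than 1, with the brightest filled and the dimmer ones open. The probe sets of Ndufv1, Ndufb2, Ndufb11, Ndufa3, Ndufa12 and Ndufa7 keep to 1 side of 0, whereas those of Ndufs4 lie on both sides.

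In 13 of the 22 genes with several probe sets, all had the same sign. Signs differed in the other 9: Ndufs4, Ndufa5, Ndufa11, Ndufv2, Ndufs7, Ndufb4, Ndufab1, Ndufaf8 and Ndufs8. Ndufa5, for example, differed by 0.27 in its brightest and by −0.05 in its dimmer probe set. Fitted over all 45037 probe sets, 3 of the 75 were higher, the brightest of Ndufv1, Ndufb9 and Ndufs4, and 1 was lower, that of Ndufa3. Over all probe sets, 3.56% passed in either direction. Among the 20 genes with 1 probe set the median change was 0.20, with 16 positive, and among the other 22 it was 0.03, with 13 positive.

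Nuclear genes of the respiratory chain are known to use binding sites for the factors NRF1 and YY1 and for ETS family proteins near their start. RefSeq promoter windows (GRCm38.p6, 250 bases before to 50 after the annotated start) matched 36 of the 42 genes and were searched on both strands. Ndufa2, Ndufa4l2, Ndufaf6, Ndufb9, Ndufs1 and Ndufs5-ps had no window and were not searched. The letters AAGATGGC, the core of a YY1 site, occurred in 8 of the 36 genes, or 22.2%, against 3.19% of 27025 genes. In all 8 they lay on the strand of the gene and after the start, with the first letter at base 11 to 39 of the transcript. Of 927 such matches in all windows, 30.6% lay on the gene's strand after the start. The letters AAGATGGC also contain ATG, the letters of a start codon. Whether the matches are YY1 sites or lie at starts of translation was not tested. The 8 matches in Nduf genes share a place as well as these letters. They are shown from 5′ to 3′ on the gene's strand, with the matched letters in capitals.
Ndufa3, chr7:3617384-3617413, plus strand: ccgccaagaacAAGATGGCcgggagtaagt
Ndufa9, chr6:126849097-126849126, minus strand: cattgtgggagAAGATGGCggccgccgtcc
Ndufaf8, chr11:120098933-120098962, plus strand: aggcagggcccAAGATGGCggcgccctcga
Ndufb8, chr19:44555393-44555415, minus strand: cggagaaggtgAAGATGGCtgcc
Ndufc1, chr3:51408915-51408944, minus strand: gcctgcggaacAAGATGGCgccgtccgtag
Ndufs4, chr13:114388045-114388070, minus strand: ttgcctacaggAAGATGGCggcggtc
Ndufs6, chr13:73328433-73328460, minus strand: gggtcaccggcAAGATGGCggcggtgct
Ndufs7, chr10:80249462-80249491, plus strand: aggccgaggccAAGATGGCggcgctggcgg
These genes did not move alike: Ndufa9 and Ndufs4 rose, Ndufa3 fell, and Ndufb8 (0.26), Ndufs6 (0.13), Ndufs7 (0.02), Ndufc1 (−0.09) and Ndufaf8 (−0.25) did not pass.

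The NRF1 letters, GCGCA and GCGC with 1 base of any kind between them, also occurred in 8 of the 36 genes, or 22.2%, against 5.19% of all genes. The genes were Ndufa5, Ndufa6, Ndufa8, Ndufa11, Ndufb4, Ndufs6, Ndufaf4 and Ndufaf5, none of which passed the threshold, with changes from −0.49 to 0.36. Ndufs6 alone held both motifs, which do not overlap there. The matches in 3 genes have the same 10 letters, shown in capitals.
Ndufa11, chr17:56717692-56717721, plus strand: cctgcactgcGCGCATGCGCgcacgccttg
Ndufaf4, chr4:24897960-24897989, plus strand: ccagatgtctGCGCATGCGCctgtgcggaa
Ndufaf5, chr2:140170652-140170681, plus strand: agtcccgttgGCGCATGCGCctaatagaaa
With identical letters, these genes differed by 0.04, −0.49 and 0.23. Another set of 10 letters is shared by Ndufa5, Ndufb4 and, read on the other strand, Ndufs6, which differed by 0.27, −0.04 and 0.13. The ETS letters CCGGAAGT occurred in 1 of the 36 genes, Ndufs3, or 2.78% against 4.31% of all genes. The window of Ndufv1, chr19:4012706-4013005 on the minus strand, held none of the 3 motifs. Windows of the Nduf genes were richer in bases G and C than all windows, with medians of 59.2% and 52.7%, and held a median of 20.5 CpG against 7. The motif shares are not matched for this composition.

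Of 14 further assembly genes of complex I, whose names do not start with Nduf, 13 were measured, 0 were higher and 1 lower, with a median change of 0.02. The one was Timmdc1, an assembly factor of the membrane arm, at 8.00, 8.09 and 8.34 in ND and 7.73, 7.72, 7.62 and 7.39 in HFD, without overlap. It fell by 0.53 (SE 0.12, adjusted p = 0.0353), and the excluded ND 4 was at 7.60, within the HFD range. Of 37 measured subunits of complexes II to V, 6 were higher and 0 lower, with a median change of 0.17 and 30 positive, where 2.62% of all genes were higher, 2.73% lower and 56.2% positive. They were Sdha, which oxidises succinate (0.56), the complex III subunits Uqcrb (0.75) and Uqcrfs1 (0.44), and the ATP synthase subunits Atp5a1 (0.42), Atp5c1 (0.39) and Atp5j (0.39). The complex I subunits, with 4 higher and 1 lower of 32, had a median of 0.18. Among the 18 measured genes of mitochondrial content and biogenesis, the outer membrane channel Vdac1 rose by 0.49 (SE 0.07, adjusted p = 0.02), 17 did not pass, and the median was 0.02. The transcription factor genes Nrf1 (0.34, adjusted p = 0.0558) and Yy1 (0.13, adjusted p = 0.444) did not pass.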

How the data were processed

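Log2 expression values of 45141 probe sets on 8 arrays, deposited by the authors, were used as given. The submitters' processing notes name RMA and affy, with versions, settings and genome build not given in the sources used here. Such values equalise the arrays, so a change in total RNA would not show, and no detection calls were used. Of the probe sets, 28898 have 1 gene symbol, 551 several and 15588 none, apart from 104 controls. Symbols were updated by Entrez identifier (28689 matched) through a RefSeq table of GRCm38.p6. HFD 1 to 4 and ND 1 to 3 were fitted over 17097 genes with limma 3.58.1 (R 4.3.3; lmFit, eBayes with trend), with Benjamini-Hochberg adjustment at 0.05. The fit was tested on simulated data. The Nduf genes and all lists were chosen with earlier results of these data known. Given by array were genes past the threshold, core subunits, up to 3 others per role by smallest p, genes with an opposite probe set and the extremes. Ndufb11, Ndufa1, Ndufv3, Ndufa12, Ndufaf8, Ndufaf3, Ndufaf1 and the other genes named were picked with their values in view. Alternatives concerned the arrays (ND 4 added, each array dropped in turn, array weights), the model (specimen number as block, robust eBayes, no trend, covariates for RNA quality and keratinocyte markers), the scaling (quantile, median) and the genes (dim ones dropped, other probe sets). Leaving out probe sets with shared probes was added after seeing the data. Figures were drawn with matplotlib 3.10.9.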

Additional observations from a re-analysis of the deposited data

Results flagged for a closer look

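In HFD, groups of 4 arrays in which 1 array stands far from the other 3 were found for 4 of the 42 genes. Chance gives about 1 in 20 groups. The share over all genes was not counted, so the number found is not a trait of the Nduf genes. Ndufb8 was at 9.73 in HFD 1 against 9.42 to 9.44 in the others, and Ndufa11 was at 9.78 in HFD 1 against 9.42 to 9.48. Ndufaf1 was at 6.05 in HFD 2 against 5.25 to 5.38. Ndufs5-ps was at 8.45 in HFD 3 against 8.75 to 8.78. None of these genes passed the threshold.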

How the results depend on the processing

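Counts of Nduf genes past the threshold changed with the arrays and covariates used, as against 4 higher and 1 lower in the comparison reported. Both counts were 0 with all 8 arrays (0.0292% and 0.00585% of all genes) and with the specimen number as a replicate block (0.00585% and 0%). They were also 0 with the 3′ minus 5′ covariate (0% and 0%) and with the keratinocyte covariate (0.0643% and 0.0234%). Leaving out 1 array gave 0 to 7 higher and 0 to 5 lower (0.0117% to 2.8% and 0.0234% to 3.47% of all genes). The counts were 8 and 2 of 38 without genes below the median gene (8.17% and 8.04% of all genes left), 11 and 3 at an adjusted p under 0.1 (5.81% and 5.57%), 2 and 0 with the mean of probe sets (1.19% and 1.15%), and 1 and 0 with the dimmest probe set (1.1% and 1.26%). Array weights gave 4 higher and 2 lower (2.93% and 3.28% of all genes). Leaving out probe sets with shared probes gave 4 higher and 0 lower (2.39% and 2.68%). Quantile normalization, median centring and robust eBayes kept the same 5 genes, with 2.36% to 2.74% of all genes higher and 2.64% to 2.79% lower. Without the trend in eBayes 6 were higher and 1 lower (2.79% and 2.67% of all genes), with Ndufa2, Ndufb2 and Ndufs3 gained and Ndufa9 lost (limma adjusted p = 0.0524). The labels do not say whether the specimen numbers pair the arrays. Same-numbered arrays correlated at −0.18, −0.29 and −0.05 in their deviations from the group means. No ND array correlated best with its own number. With so few arrays, these correlations cannot decide whether arrays of the same number shared a batch.

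The median change ranged over the fits without 1 array from 0.12 to 0.17 for all 42 genes, 0.09 to 0.14 for core subunits, 0.15 to 0.22 for accessory subunits and −0.17 to 0.02 for assembly factors. With the dimmest probe set it was 0.0683 for all 42 genes, 0.0683 for accessory subunits and 0.06 for assembly factors. With the 3′ minus 5′ covariate it was 0.0773 for all 42 genes, 0.19 for core subunits and 0.0827 for accessory subunits. Without dim genes, assembly factors were at −0.25, over 3 genes. The share of Nduf genes with the NRF1 motif was 47.2% with 1 mismatch allowed, against 15.9% of all genes.

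Some changes turned sign. Ndufa4l2 was at 0.035 with all arrays, 0.0233 with the block, 0.00411 with quantile normalization, 0.0298 with the 3′ minus 5′ covariate and 0.327 with the keratinocyte covariate, and from −0.153 to 0.115 without 1 array, positive without ND 2, HFD 2 or HFD 4. Ndufv2 ran from −0.0525 without ND 2 to 0.0775 without ND 1, and was at −0.0842 with the mean of probe sets and −0.198 with the dimmest. Ndufs7 ran from −0.02 without ND 3 to 0.05 without ND 1, and was at −0.0175 with the mean, −0.0533 with the dimmest and −0.0812 with the 3′ minus 5′ covariate. Ndufs4 was at −0.00028 with the mean and −0.03 with the dimmest, Ndufs8 at 0.0283 and Ndufa5 at −0.0492 with the dimmest. The cause of these changes was not tested.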
